A study of Mus musculus with 21 samples.

Results

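The 39 genes described here encode the antioxidant and glutathione enzymes of mouse hematopoietic stem cells (HSCs), together with the transcription factor NRF2 and its inhibitor KEAP1. The rule that lists them is by function, and all 39 were found by symbol among the 21000 genes of the count table and passed the filter on low counts. NRF2, the product of Nfe2l2, is held in the cytoplasm and marked for degradation by KEAP1. Oxidants and electrophiles modify KEAP1, after which NRF2 enters the nucleus and activates genes that carry an antioxidant response element. HSCs are largely quiescent, and their reactive oxygen species rise when they enter the cell cycle. Glutathione and thioredoxin are the main thiol reductants that remove peroxides, and the peroxiredoxins and glutathione peroxidases draw on them.

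RNA was sequenced from 21 libraries in 7 groups of 3. HSCs were sorted as CD150+CD48-Lineage-Sca-1+c-Kit+ bone marrow cells of wild-type C57BL/6 mice that were 10 weeks old at the start, and the study's methods add that Flt3+ cells were gated out and that mice of either sex were used. 5-Fluorouracil (5-FU), which kills dividing cells and drives surviving HSCs into cycle, was given intraperitoneally at 150 mg/kg, either once or 3 times at 21-day intervals, and PBS was given to the controls. The groups were PBS once at day 6 (PBS-1 d6), 5-FU once at day 6 and at day 21 (5-FU-1 d6, 5-FU-1 d21), PBS 3 times at day 6 (PBS-3 d6), 5-FU 3 times at day 6 and at day 21 (5-FU-3 d6, 5-FU-3 d21), and untreated mice aged 2 years (old), where the day of the last administration is day 1. The treated libraries were made from 3000 to 3500 sorted HSCs each. The labels tell of independent experiments and a legend in the study of pooled replicates, so the p-values measure the spread between these libraries. For HSCs taken 5 days after 5-FU the methods widened the gate to cells dim for c-Kit and left out the Mac-1 antibody, so the gate and the treatment at day 6 cannot be told apart. No PBS group was analysed at day 21. The column names of PBS-1 d6 and 5-FU-1 d6, and of no other group, carry a suffix of unstated meaning. Where either group is compared with another group, day or number of administrations cannot be told apart from what the suffix marks. In the interaction, 1 pair of groups carries it and the other does not.

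The libraries held 22184885 to 38649033 counts (median 26962256), and those of 5-FU-3 d6 reached the highest totals, at 31358819 to 38649033. The 12 HSC markers summed to between 2591 and 3779 CPM (counts scaled to library depth, with TMM normalization for composition) in all libraries. Single HSC markers moved both ways at day 6. Against PBS, 3 were called higher and 2 lower after 1 administration, and 1 higher and 5 lower after 3. Kit, the gene of c-Kit, was among those lower in both (log2 fold change -0.86 and -0.44). Ly6a, the gene of Sca-1, was among those higher after 1 (1.01). T cell markers summed to at most 3.87 CPM. Macrophage markers summed to 15.6 to 43.2 CPM, B cell markers to 29.8 to 58.2, and endothelial and stromal markers to 37.9 to 98.6. The sum of 15 cell cycle genes was 1889 to 1968 CPM in PBS-1 d6 and 2506 to 2733 in 5-FU-1 d6, and 1644 to 1960 in PBS-3 d6 and 2736 to 3220 in 5-FU-3 d6; 9 and 14 of the 15 genes were called higher. The 10 megakaryocyte markers summed to 2283 to 2406 CPM against 1235 to 1304 after 1 administration, and to 2023 to 2313 against 1000 to 1111 after 3. Of these, 7 and 6 genes were called lower and none higher. The sum of the 16 neutrophil and monocyte markers also lay lower, at 60.6 to 75.5 CPM against 105 to 157 and at 54.0 to 79.0 against 96.1 to 128. Of the genes tested, 6 of 12 were called lower after 1 administration and 2 of 11 after 3, and none higher. In the erythroid list the sum was 93.1 to 101.5 CPM in 5-FU-1 d6 against 26.0 to 36.7, which came from the globin genes Hbb-bs (39.4 to 46.7 against 4.61 to 7.49) and Hbb-bt, while Slc4a1 was at 0 in both groups and Klf1 was lower. The part of these shifts in the results on the 39 genes was not tested. In sorted bulk samples, fewer cells of a type and less RNA per cell cannot be told apart.

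The promoters of 34 of the 39 genes were matched in RefSeq (GRCm38.p6), each 250 bases before to 50 bases after the annotated start. The core of the antioxidant response element, TGACNNNGC, was searched on both strands; its first letters can overlap the AP-1 site TGANTCA. It stood in 7 of the 43 promoters of these genes (16.3%) and in 12.4% of all 32851 promoters, or in 20.6% of the 34 genes and 14% of all 27025. The 7 were promoters of Gclm, Gstm5, Nfe2l2, Prdx1, Sod1, Srxn1 and Txnrd1. The sequences below are those of the genes that rose after 3 administrations, with Prdx1 added as a motif-bearing peroxiredoxin. They are printed 5′ to 3′ on the strand of the gene, with the motif in capitals.
Txnrd1, 1 of its 3 RefSeq starts, chr10:82858956-82859255, plus strand: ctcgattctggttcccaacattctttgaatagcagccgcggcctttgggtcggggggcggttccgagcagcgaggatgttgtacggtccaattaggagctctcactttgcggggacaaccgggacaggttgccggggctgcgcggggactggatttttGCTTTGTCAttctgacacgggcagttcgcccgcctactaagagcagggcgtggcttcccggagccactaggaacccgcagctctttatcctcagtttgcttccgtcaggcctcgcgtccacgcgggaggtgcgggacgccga
Prdx1, chr4:116685349-116685648, plus strand: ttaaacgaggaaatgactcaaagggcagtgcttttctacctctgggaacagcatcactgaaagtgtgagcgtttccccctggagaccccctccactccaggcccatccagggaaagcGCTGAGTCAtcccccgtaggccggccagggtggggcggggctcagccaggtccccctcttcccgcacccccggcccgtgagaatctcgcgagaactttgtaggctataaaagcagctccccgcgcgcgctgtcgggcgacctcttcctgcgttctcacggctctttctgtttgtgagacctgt
Prdx4, chrX:155338411-155338710, minus strand: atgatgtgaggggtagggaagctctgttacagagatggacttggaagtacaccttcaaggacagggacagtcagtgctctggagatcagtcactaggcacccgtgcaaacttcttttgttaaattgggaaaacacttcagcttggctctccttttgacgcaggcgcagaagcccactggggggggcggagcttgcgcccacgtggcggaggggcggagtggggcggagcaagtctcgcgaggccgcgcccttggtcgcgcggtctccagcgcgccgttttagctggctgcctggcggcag
Glrx3, chr7:137437323-137437622, plus strand: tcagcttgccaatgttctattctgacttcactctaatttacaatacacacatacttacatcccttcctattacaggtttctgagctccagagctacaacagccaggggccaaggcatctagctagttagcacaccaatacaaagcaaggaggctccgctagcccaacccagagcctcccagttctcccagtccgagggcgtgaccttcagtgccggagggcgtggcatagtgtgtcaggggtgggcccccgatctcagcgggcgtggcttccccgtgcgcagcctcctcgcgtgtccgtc
Slc7a11, chr3:50443564-50443863, minus strand: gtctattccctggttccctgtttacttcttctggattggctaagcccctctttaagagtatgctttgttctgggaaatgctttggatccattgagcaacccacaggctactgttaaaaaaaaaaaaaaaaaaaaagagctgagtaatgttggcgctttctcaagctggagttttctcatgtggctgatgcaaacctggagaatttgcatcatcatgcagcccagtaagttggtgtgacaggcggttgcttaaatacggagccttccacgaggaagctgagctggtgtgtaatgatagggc
The matches in Txnrd1 and Prdx1 began 92 and 133 bases before the start and lay on the opposite strand, and that of Prdx1 overlapped a TGANTCA sequence. A match is only a description of these letters, and the counts, which are per gene, do not tell which Txnrd1 start was used. Searches of these windows say nothing of elements further away.

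The counts of these genes differed in how they followed depth, which bears on every level below. For the 24 genes with 1 RefSeq mRNA, the median slope of log2 count on log2 total count within groups was 0.50 (0.13 to 1.21), whereas it was 0.92 (0.29 to 1.29) for the 15 with 2 or more. A slope of 1.00, as the median of 5049 well-counted genes with 2 or more mRNAs had, means a count in proportion to depth; the 4112 such genes with 1 mRNA had a median of 0.69. Fth1, the ferritin heavy chain, held 1093 to 1223 counts in all 21 libraries while totals differed 1.74-fold, and Ftl1, the light chain, held 1247 to 1377. Single genes departed from their class, with slopes of 1.21 for Gclc and 1.02 for Nqo1 among the 24 and of 0.29 for Blvrb among the 15. No gene of the 24 exceeded 1.81 counts per base of mRNA, against up to 39.2 among the 15. The levels of genes from these 2 classes were therefore not set beside each other, and ferritin and thioredoxin gave little information on abundance here. How the counts came to differ was not tested, and the annotation the authors used may hold other mRNAs than RefSeq does.

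**Figure D1:**
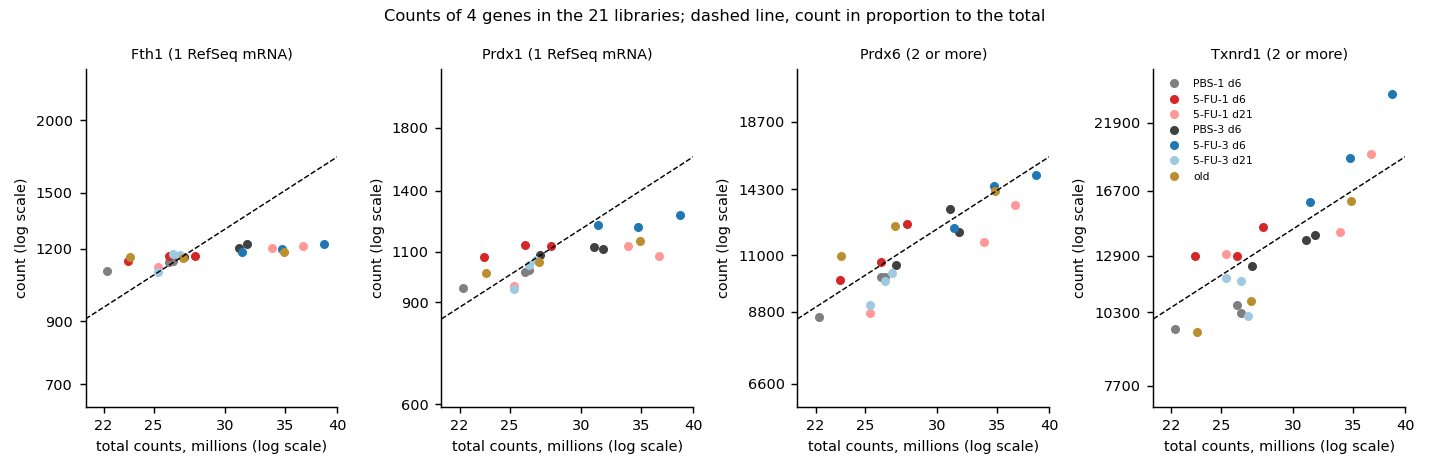
Counts of 4 genes (y axis, log scale) against the total counts of the 21 libraries (x axis, log scale), coloured by group; the dashed line marks counts in proportion to the total. Fth1 and Prdx1, with 1 RefSeq mRNA, stay at 1093 to 1223 and 947 to 1273 counts, below the line in the deep libraries, while Prdx6 and Txnrd1 follow it more closely.

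Among the 15 genes with 2 or more mRNAs, Gpx1, the cytosolic glutathione peroxidase that reduces hydrogen peroxide, stood highest per length in PBS-1 d6, at 1104, 1142 and 1134 CPM per kilobase of mRNA (mean 1127 ± 19.7, SD, n = 3). Gpx4, which reduces lipid hydroperoxides, followed at 307 ± 13, and Prdx6 at 157 ± 1.93. These 3 did not overlap with their neighbours in the order, whereas Gstm1 (138 ± 9.13), Prdx2 (124 ± 5.34), Keap1 (111 ± 16.2) and Txnrd1 (110 ± 4.54) overlapped with the next below or above. Mgst2 was lowest at 3.81 ± 1.36. Per kilobase of all exons the order changed below Gpx1 (838) and Gpx4 (177), with Gstm1 (120) above Prdx6 (78.1). Of the 75-base windows of the Gpx4 mRNA 55.3% also occurred in other annotated genes, mainly pseudogenes, as did 38.3% of Glrx3, 14.8% of Gstm1 and 5.59% of Prdx2, so counts of these genes are uncertain where reads were divided between copies. The 10 genes with any such window also included Gstp1 (57.7%, shared with Gstp2) and Ftl1 (69.9%). Exons of Keap1 (10.9% of bases), Prdx2 (11.5%), Prdx5 (19.1%) and Gss (15.4%) overlap genes of the opposite strand, whose reads cannot be told apart by a kit that does not mark strand.

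The first comparison asked how HSCs driven into cycle by 1 administration of 5-FU differed from controls at day 6. Of the 39 genes, 6 were called higher and none lower by the edgeR quasi-likelihood test (adjusted p under 0.05 over 12759 genes), where 11.5% of all genes were called higher and 10.6% lower. The 15.4% of these genes that were called is below the 22.2% of all genes called in either direction. By class, 5 of the 15 genes with 2 or more mRNAs were called (28.3% of all such genes) and 1 of the 24 with 1 (16.4%). Of the 39 estimates 28 were positive with a median log2 fold change of 0.12, against 50% and -0.00 for all genes. The groups did not overlap for 17 genes that lay higher and 2 that lay lower (all genes 22.3% and 21.4%).

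In the thioredoxin system, which reduces peroxiredoxins and ribonucleotide reductase, Txnrd1 rose. This gene on chr10:82833951-82897712 encodes the cytosolic thioredoxin reductase. Its level was 382, 400 and 415 CPM in PBS-1 d6 and 537, 533 and 488 CPM in 5-FU-1 d6. Every 5-FU library lay above every PBS library, with a log2 fold change of 0.39 (SE 0.0637, adjusted p = 0.00712). The other 4 genes of the system had positive estimates of 0.08 to 0.30 that did not pass the test. Of these Srxn1, which reactivates over-oxidised peroxiredoxins, had 0.30 (adjusted p = 0.0653) and the thioredoxin gene Txn1 had 0.28 (adjusted p = 0.0648).

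Peroxiredoxins all had positive estimates, and 2 of the 6 passed. Prdx4, the peroxiredoxin of the endoplasmic reticulum (chrX:155323918-155340754), measured 70.2, 63.6 and 71.0 CPM in PBS-1 d6 and 97.6, 113.7 and 109.3 in 5-FU-1 d6. This was the largest difference among the called genes, with a log2 fold change of 0.66 (SE 0.0879, adjusted p = 0.00385), or 1.58-fold. Prdx2, a cytosolic enzyme that is abundant in red cells (chr8:84969587-84974834), measured 197, 194 and 210 CPM against 245, 270 and 269 (log2 fold change 0.39, SE 0.0701, adjusted p = 0.00976). The groups of both genes were apart. The remaining 4 peroxiredoxins had 0.12 to 0.20, with adjusted p from 0.0635 for Prdx5 to 0.364.

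Gpx1 (chr9:108338903-108340343) measured 1184, 1224 and 1215 CPM in PBS-1 d6 and 1552, 1559 and 1459 in 5-FU-1 d6. It rose 1.27-fold (log2 fold change 0.35, SE 0.0501, adjusted p = 0.0049) with no overlap of groups. The 5-FU-1 d6 values lay within the range of the other PBS group, PBS-3 d6, at 1563, 1446 and 1456 CPM. Like Prdx2 it is abundant in erythroid cells. Of the erythroid list only Hbb-bs and Hbb-bt were called higher, Klf1 and Epb42 were called lower, and Hba-a1 and Hba-a2 had estimates of -0.16 and -0.07; the part of these shifts in the Prdx2 and Gpx1 values was not tested. Gpx7, with at most 7.32 CPM in any library, had an estimate of 0.47 that did not pass (adjusted p = 0.121), and Gpx4 one of -0.02.

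Glutaredoxins reduce protein-glutathione disulphides or carry iron-sulphur clusters. Glrx3, of the latter kind (chr7:137437614-137468594), measured 115.5, 116.7 and 123.5 CPM in PBS-1 d6 and 165, 171 and 167 in 5-FU-1 d6, a log2 fold change of 0.51 (SE 0.0627, adjusted p = 0.00316). The spread within each group was far smaller than the gap between them. Glrx5, which acts in mitochondrial iron-sulphur cluster assembly (chr12:105032688-105042906), measured 15.4, 16.6 and 17.4 CPM against 20.4, 19.6 and 20.8 (log2 fold change 0.31, SE 0.087, adjusted p = 0.0423). The groups were apart, but the call was lost in 10 of 14 alternatives, whose adjusted p ran from 0.00896 to 0.112, and when any 1 library was left out.

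Neither the gene for NRF2 nor its targets Hmox1, Nqo1 and Gclm passed the test after 1 administration. Other targets, such as Txnrd1 (called higher, as given above), Srxn1 and Slc7a11, are given under their own branches. Hmox1, Nqo1 and Gclm therefore do not stand for all NRF2 targets. Nfe2l2 measured 38.4, 41.8 and 39.3 CPM in PBS-1 d6 and 41.2, 37.4 and 38.7 in 5-FU-1 d6 (log2 fold change -0.02, SE 0.0747, adjusted p = 0.902). Keap1 measured 397, 365 and 296 CPM against 329, 375 and 330 (log2 fold change -0.02, SE 0.115, adjusted p = 0.915). The groups of both overlapped, and both estimates changed sign without some single libraries.
Hmox1, the inducible heme oxygenase, was low at 5.25, 3.57 and 5.25 CPM against 4.92, 4.30 and 5.53 (log2 fold change 0.08, SE 0.242, adjusted p = 0.84). Gclm, the modifier subunit of the rate-limiting enzyme of glutathione synthesis, measured 29.9, 31.6 and 30.5 CPM against 30.4, 28.3 and 28.1 (log2 fold change -0.07, SE 0.0733, adjusted p = 0.507). Nqo1, a quinone reductase and a standard readout of NRF2, had the most negative estimate of the 39. Its level was 9.38, 8.39 and 6.80 CPM in PBS-1 d6 and 5.71, 4.71 and 5.53 in 5-FU-1 d6, without overlap (log2 fold change -0.61, SE 0.185). It missed the threshold at an adjusted p of 0.0528 and was called lower in 7 of 14 alternatives (adjusted p 0.0216 to 0.155).

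The other branches held no called gene after 1 administration. Sod1 measured 14.1, 15.0 and 15.3 CPM in PBS-1 d6 and 19.4, 17.4 and 17.4 in 5-FU-1 d6, without overlap (log2 fold change 0.30, SE 0.0916, adjusted p = 0.0567), while the mitochondrial Sod2 had 0.11 and Cat -0.12. The 7 glutathione transferases, which conjugate glutathione to electrophiles, ranged from -0.37 (Gsta4) to 0.37 (Mgst3), with adjusted p of at least 0.168. Gclc, the catalytic subunit of the first step of glutathione synthesis, had -0.15 and Gss, the synthase of the last step, -0.11. The ferritin genes Fth1 and Ftl1 had 0.03 and 0.01, subject to the count behaviour given above.

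The second comparison asked the same after 3 administrations. By the same test 4 genes were called higher and 2 lower, where 9.84% of 12729 genes were called higher and 8.3% lower (18.1% in all). Again 5 of 15 genes with 2 or more mRNAs were called, beside 23.7% of all such genes, and 1 of 24 with 1, beside 13.1%. Here the median of the 39 estimates was -0.01, as for all genes, and 19 were positive. Normalizing by library totals alone shifted the median of all genes to -0.11 and the share of higher calls among all calls from 54.2% to 35.6% (52% to 41% after 1 administration). The groups lay apart for 9 genes that were higher (all genes 21.2%) and 5 that were lower (18.7%).

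Prdx4, Txnrd1 and Glrx3 rose as they had after 1 administration. Prdx4 measured 67.1, 56.9 and 69.9 CPM in PBS-3 d6 and 106.9, 106.1 and 101.2 in 5-FU-3 d6 (log2 fold change 0.69, SE 0.0987, adjusted p = 0.00616). Txnrd1 measured 444, 438 and 441 CPM against 579, 524 and 691 (log2 fold change 0.43, SE 0.105, adjusted p = 0.0308). Glrx3 measured 118, 136 and 123 CPM against 170, 169 and 161 (log2 fold change 0.40, SE 0.0808, adjusted p = 0.0177). In all 3 the groups were apart, and the third Txnrd1 library was well above the other two. The Txnrd1 call was lost in 4 of 14 alternatives (adjusted p up to 0.0838, without 5-FU-3 d6 replicate 1 or any PBS-3 d6 library) and that of Glrx3 in 5 (up to 0.0567).

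Slc7a11, the cystine importer that supplies cysteine for glutathione (chr3:49892526-50443614), was called after 3 administrations. Its level was 16.9, 12.6 and 14.7 CPM in PBS-3 d6 and 24.0, 23.8 and 22.9 in 5-FU-3 d6, a 1.59-fold rise (log2 fold change 0.67, SE 0.121, adjusted p = 0.0123). After 1 administration it measured 16.0, 16.9 and 15.7 CPM against 18.2, 21.2 and 15.5, and the groups overlapped (log2 fold change 0.19, adjusted p = 0.323). The 3 libraries of 5-FU-3 d6 were the highest of all 21. None of the 4 other genes of glutathione synthesis and reduction passed in either comparison; glutathione reductase, Gsr, came nearest with 0.27 and 0.28 (adjusted p = 0.0718 and 0.0767).

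The 2 genes that fell were Blvrb and Gstm1. Blvrb, a biliverdin and flavin reductase that is abundant in erythroid cells (chr7:27447978-27466144), measured 34.0, 31.5 and 31.8 CPM in PBS-3 d6 and 21.4, 24.1 and 20.2 in 5-FU-3 d6 (log2 fold change -0.57, SE 0.0933, adjusted p = 0.00894). Gstm1, a mu-class glutathione transferase (chr3:108012255-108017973), measured 194, 207 and 196 CPM against 143, 154 and 132 (log2 fold change -0.48, SE 0.0814, adjusted p = 0.01). The groups of both genes were apart. The erythroid list moved both ways, with Hbb-bs and Hbb-bt called higher and Car1 and Ermap, listed at 0 in all 5-FU-3 d6 libraries, called lower; its sum was 38.4 to 52.1 CPM against 26.5 to 41.9, and its part in the Blvrb fall was not tested. After 1 administration the groups of both overlapped and neither was called. Blvrb was at 31.9, 20.8 and 28.8 CPM against 28.0, 26.7 and 26.2, and Gstm1 at 164, 187 and 180 against 181, 169 and 169.

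Prdx2, Gpx1 and Glrx5 were not called after 3 administrations. Prdx2 measured 246, 258 and 236 CPM in PBS-3 d6 and 278, 252 and 226 in 5-FU-3 d6 (log2 fold change 0.03, adjusted p = 0.869). Gpx1 measured 1563, 1446 and 1456 CPM against 1843, 1689 and 1578 (0.19, adjusted p = 0.124), and Glrx5 measured 16.7, 18.2 and 17.1 against 18.7, 20.1 and 18.2 (0.13, adjusted p = 0.358). The PBS-3 d6 libraries of both Prdx2 and Gpx1 lay above those of PBS-1 d6, at an estimate of 1.24-fold that did not pass the test (adjusted p = 0.172 and 0.128). The 5-FU-1 d6 libraries of Prdx2 (245, 270 and 269 CPM) overlapped with those of PBS-3 d6, and those of Gpx1 lay within their range.
Nfe2l2 measured 39.2, 43.2 and 42.5 CPM in PBS-3 d6 and 35.2, 33.5 and 35.4 in 5-FU-3 d6, without overlap, and just missed the threshold (log2 fold change -0.27, SE 0.0781, adjusted p = 0.0548, range over alternatives 0.0142 to 0.144). Keap1 was at 384, 402 and 385 CPM against 306, 351 and 405 (-0.15, adjusted p = 0.378). Neither passed the test.
Hmox1 had the largest positive estimate, 0.79 (SE 0.395, adjusted p = 0.212), from 2.97, 1.72 and 3.02 CPM against 3.05, 6.46 and 3.91. The second 5-FU library stood well above the others, and the estimate ran from 0.44 to 1.01 over the alternatives. Nqo1 was at 8.74, 9.92 and 7.75 CPM against 8.53, 6.40 and 6.81 (-0.29, adjusted p = 0.303). Gclm was at 33.0, 34.0 and 36.1 against 34.2, 32.3 and 30.4 (-0.10, adjusted p = 0.473). Gsta4, which conjugates the lipid peroxidation product 4-hydroxynonenal, had the most negative estimate (-0.82, SE 0.287, adjusted p = 0.0929). Apart from Gstm1, the transferases had -0.82 to 0.13, and the superoxide dismutases and catalase -0.09 to 0.06 with adjusted p of at least 0.457.

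**Figure D2:**
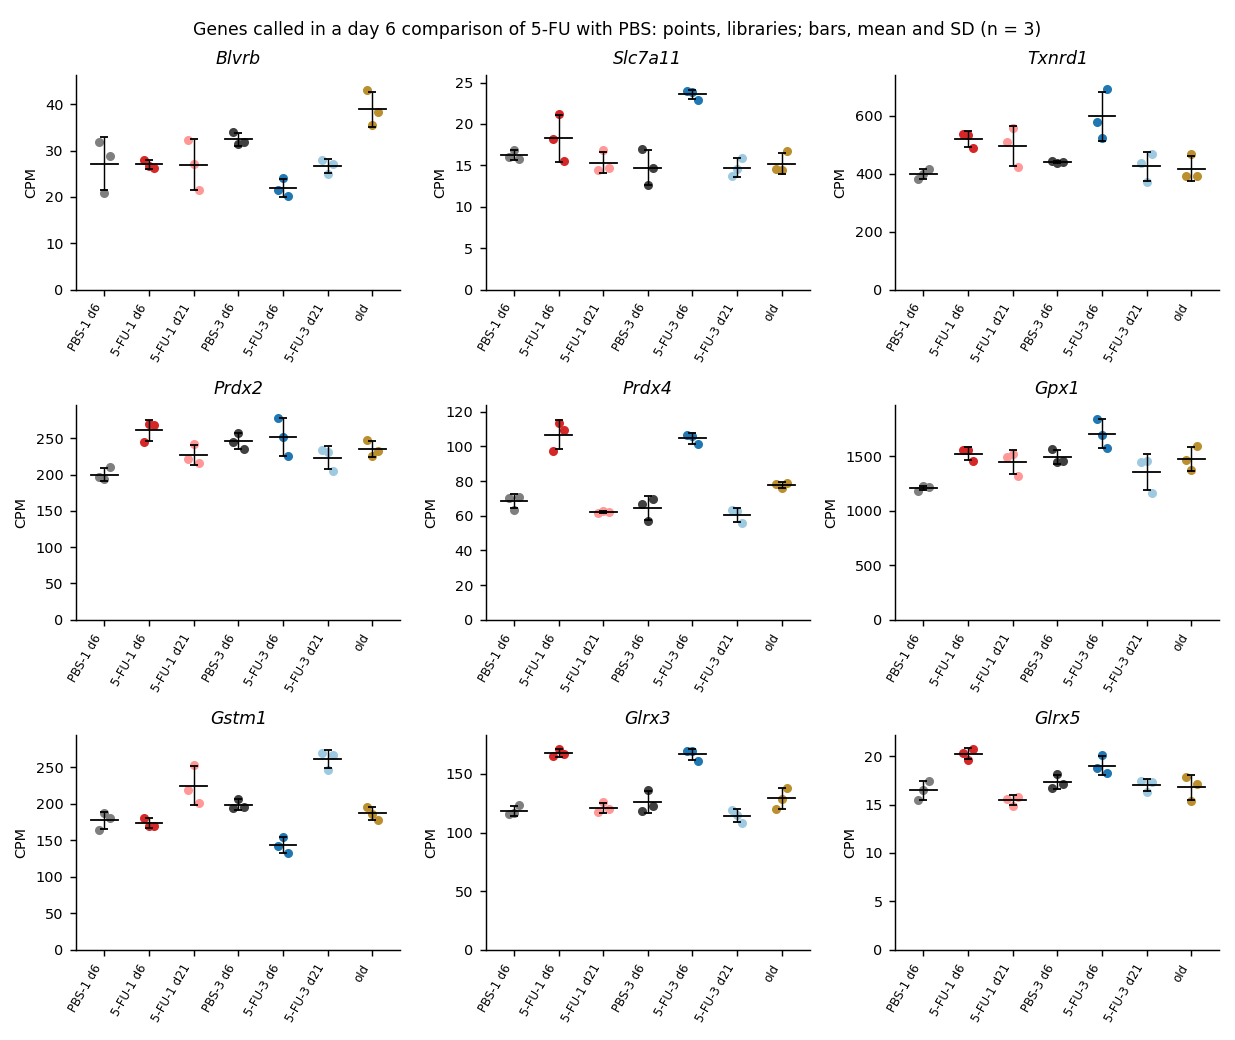
CPM (y axis, from 0) of the 9 genes called in either day 6 comparison of 5-FU with PBS, in the 7 groups (x axis); points are libraries, and bars the mean and SD of 3. Prdx4 and Glrx3 stand apart in both day 6 5-FU groups, Slc7a11 only in 5-FU-3 d6 (22.9 to 24.0 CPM), and Gstm1 is lowest in 5-FU-3 d6 and highest in 5-FU-3 d21 (247 to 269 CPM).

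The 2 day 6 comparisons share no library. Of the 39 genes 30 had the same sign in both (76.9%, beside 72.9% of 12502 genes tested in both). So had 8 of the 9 called in either, but these were selected by the same tests. The share among all genes called in either was not taken. Txnrd1, Prdx4 and Glrx3 were called in both. Whether an effect differed between 1 and 3 administrations was tested by the interaction. None of the 39 passed in edgeR, where 0.65% of 13227 genes did. Under an unadjusted p of 0.05 lay 5 of the 39 (14.8% of all genes). DESeq2, which called 692 genes, called Prdx2 and Gstm1. The smallest adjusted p in edgeR was that of Gstm1 (0.0742, difference of log2 fold changes -0.44, SE 0.103). For Slc7a11 the difference was 0.50 (SE 0.176, adjusted p = 0.206), for Blvrb -0.56 (SE 0.188, adjusted p = 0.183) and for Prdx2 -0.36 (SE 0.114, adjusted p = 0.168). For Prdx4, Txnrd1 and Glrx3 the differences were 0.05 (SE 0.128), 0.05 (SE 0.125) and -0.10 (SE 0.0921).

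**Figure D3:**
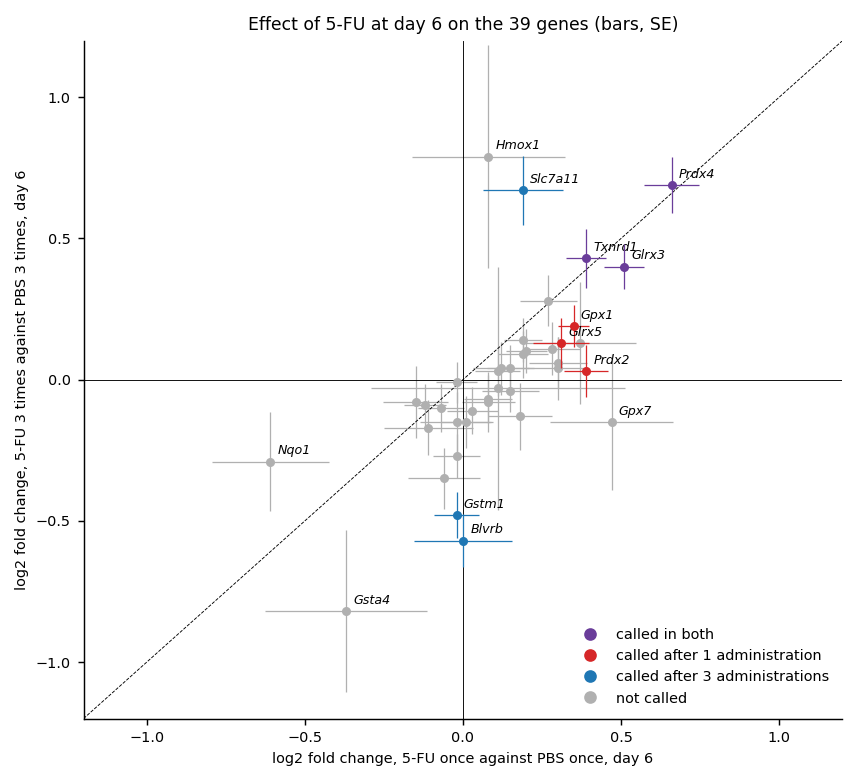
log2 fold change of 5-FU over PBS at day 6 for the 39 genes after 1 (x axis) and 3 administrations (y axis), with SE bars, coloured by call; the dashed line marks equal change. Prdx4, Txnrd1 and Glrx3 lie near the line in the upper right, and Slc7a11, Blvrb and Gstm1 lie near 0 on the x axis only.

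At day 21 none of the 39 genes differed from PBS by edgeR after 1 administration (0.221% of 12647 genes called) or after 3 (0.0475% of 12632). Under an unadjusted p of 0.05 lay 5 of the 39 in each, beside 13.3% and 13.7% of all genes. DESeq2 called 4 and 1 of the 39, and 726 and 573 of all genes. By DESeq2, Txnrd2, Gpx1 and Gstm1 were higher and Nqo1 lower after 1 administration, and Gstm1 was higher after 3. Gstm1 measured 219, 254 and 201 CPM in 5-FU-1 d21 and 269, 247 and 267 in 5-FU-3 d21, above every library of its PBS group in both (log2 fold change 0.34 and 0.39, edgeR adjusted p = 0.226 and 0.112). Nqo1 measured 4.67, 5.21 and 4.86 CPM in 5-FU-1 d21 and 6.61, 7.51 and 5.50 in 5-FU-3 d21, below its PBS libraries in both (-0.74 and -0.43, adjusted p = 0.17 and 0.371). These comparisons set day 21 beside PBS at day 6.

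From day 6 to day 21, 3 of the 6 genes that had risen after 1 administration and all 4 that had risen after 3 were called lower. After 1 administration 2 genes were called higher and 6 lower (8 of 39, or 20.5%; 26% of 12589 genes were called, 12.3% higher and 13.7% lower). Prdx4 fell to 61.5, 62.6 and 62.2 CPM (log2 fold change -0.80, SE 0.0852, adjusted p = 0.00163), Glrx3 to 117, 126 and 120 (-0.48, SE 0.0693, adjusted p = 0.00419) and Glrx5 to 15.6, 14.8 and 15.8 (-0.41, adjusted p = 0.0163). The other falls were of genes with 1 mRNA, Txn1 (-0.47, adjusted p = 0.0215), Sod1, the cytosolic superoxide dismutase (-0.38, adjusted p = 0.0316), and Prdx1 (-0.35, adjusted p = 0.0366). Libraries 2 and 3 of 5-FU-1 d21 were deeper than any of 5-FU-1 d6, and only 2 to 9 genes were called when 1 library was left out. Txnrd1, Gpx1 and Prdx2, which had also risen, were not called lower. Txnrd1 was at 509, 557 and 423 CPM (-0.08, adjusted p = 0.615) and Gpx1 at 1491, 1522 and 1316 (-0.09, adjusted p = 0.385). Prdx2 was at 222, 242 and 216 CPM, below its 5-FU-1 d6 libraries (-0.22, adjusted p = 0.0797). Txnrd2, the mitochondrial thioredoxin reductase, rose from 56.3, 53.2 and 56.3 CPM to 63.5, 71.6 and 68.9 (0.28, adjusted p = 0.0408), and Gstm1 rose (0.36, adjusted p = 0.0339). The call of Txnrd2 was lost in 8 of 14 alternatives (adjusted p up to 0.139) and that of Gstm1 in 6 (up to 0.105), and with a replicate block none was called higher. The falls of Txn1, Prdx1, Sod1 and Glrx5 were lost in 5, 6, 6 and 3 alternatives, in each case also without any 1 library of 5-FU-1 d6.

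After 3 administrations 2 genes were called higher and 4 lower (15.4%; 19.5% of 12553 genes, 8.68% higher and 10.8% lower). The fall covered the same 4 genes that had risen. Prdx4 went to 63.3, 62.5 and 55.7 CPM (log2 fold change -0.80, SE 0.0888, adjusted p = 0.002) and Glrx3 to 120, 115 and 109 (-0.55, SE 0.079, adjusted p = 0.00455). Slc7a11 went to 13.7, 14.6 and 15.9 CPM (-0.69, SE 0.0939, adjusted p = 0.00407) and Txnrd1 to 436, 372 and 468 (-0.50, SE 0.127, adjusted p = 0.0332). Their day 21 libraries overlapped with those of PBS-3 d6. Gstm1 rose 1.81-fold (0.86, SE 0.0861, adjusted p = 0.00144), with its day 21 libraries above all others except 5-FU-1 d21 replicate 2, and Cat, the peroxisomal catalase, rose from 43.2, 44.2 and 41.2 CPM to 53.1, 50.9 and 52.8 (0.28, adjusted p = 0.045). The call of Cat was lost in 8 of 14 alternatives, among them each library left out (adjusted p up to 0.135); Cat has 1 mRNA and a depth slope of 0.61, and its raw counts were 1417, 1346 and 1464 in the deeper day 6 libraries and 1423, 1388 and 1334 at day 21. That of Txnrd1 was lost in 4 (up to 0.0882). By library totals alone the median of all genes shifted by 0.12, and the share of higher calls went from 44.4% to 63.5%. The day 6 groups in both comparisons enter the comparisons with PBS as well, so the falls are not independent of the rises.

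**Figure D4:**
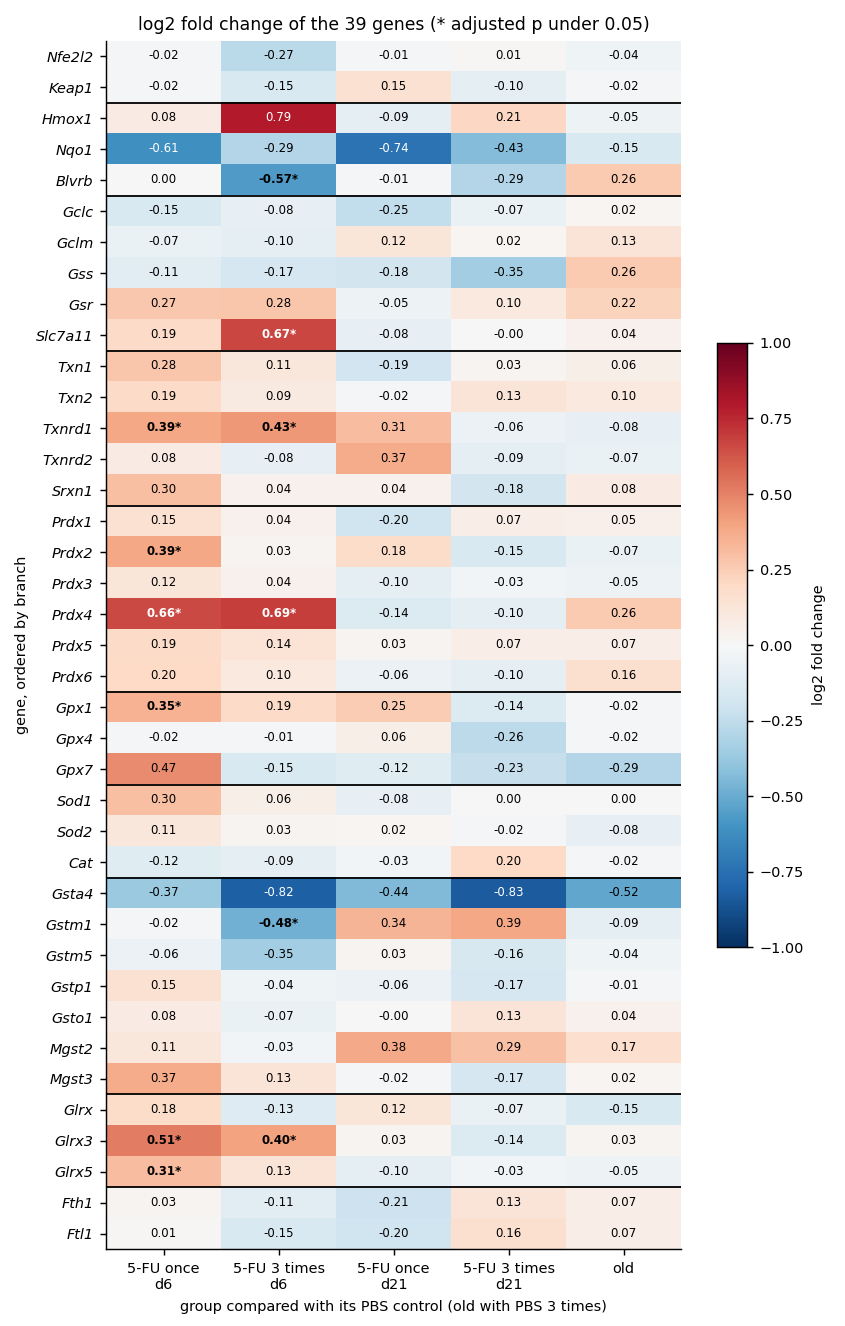
log2 fold change (colour and number) of the 39 genes in rows, ordered by branch with lines between branches, for 5-FU once and 3 times at day 6 and day 21 against PBS and for old mice against PBS 3 times; asterisks mark adjusted p under 0.05 by edgeR. Asterisks stand in both day 6 columns, 6 each, and in none of the day 21 and old columns.

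HSCs of old mice were set beside PBS-3 d6. The old mice were untreated and the PBS-3 d6 mice were injected, so age and injection cannot be told apart here. None of the 39 genes was called by edgeR (0.996% of 12847 genes) or by DESeq2, which called 557 genes. An unadjusted p under 0.05 was reached by 4 of the 39 and by 11.2% of all genes. The 4 were Prdx4 (78.4, 76.1 and 79.0 CPM, log2 fold change 0.26, adjusted p = 0.386), Blvrb (43.0, 35.6 and 38.2 CPM, 0.26, adjusted p = 0.396), Gsr (0.22, adjusted p = 0.424) and Gsta4 (-0.52, adjusted p = 0.434). The groups of all 4 were apart, but the 4 were picked by p from the same libraries, so this adds nothing to it. Of the 39 genes, 5 lay apart as higher and 1 as lower. The share among all genes was not taken. Erythroid markers summed to 65.2 to 173 CPM in the old libraries and to 26.5 to 41.9 in PBS-3 d6. Of the 10 erythroid genes tested, 1 was called higher and none lower, and Hba-a1 ran from 1.94 to 38.9 CPM between the old libraries. The part of this list in the values of the 39 genes was not tested. Between the PBS groups no gene of the 39 was called by edgeR either (0.0156% of 12806 genes; 7 of the 39 and 12.8% of all genes under an unadjusted p of 0.05), while DESeq2, which called 531 genes, called Prdx2, Gpx1 and Gpx4 higher in PBS-3 d6. Hmox1 was lower in PBS-3 d6 than in PBS-1 d6 in every library (log2 fold change -0.86, adjusted p = 0.349).

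Beside the 39 stood a list of 90 other genes of the pathway, among them further transferases, NADPH oxidase subunits, iron and NADPH genes and other NRF2 targets. After 1 administration 10 were called higher and 12 lower of 84 tested, beside 11.5% and 10.6% of all genes, and after 3 administrations 5 higher and 11 lower of 85, beside 9.84% and 8.3%; at day 21 none differed from PBS in edgeR. The largest rises after 1 administration were those of Msrb3, a methionine sulphoxide reductase (1.56, 2.78 and 1.68 CPM against 4.46, 5.66 and 4.36, log2 fold change 1.28, adjusted p = 0.0305), Sesn1, a p53 target (0.62, adjusted p = 0.00835), and Cyba, a membrane subunit of NADPH oxidase (0.55, adjusted p = 0.0048). The largest falls were those of Mpo, the myeloperoxidase of granulocyte precursors (-2.80, adjusted p = 0.0253), Hpgds, a sigma-class transferase (-2.25, adjusted p = 0.016), and Txnip, which binds and inhibits thioredoxin. Txnip measured 666, 723 and 601 CPM in PBS-1 d6 and 384, 334 and 349 in 5-FU-1 d6 (-0.89, SE 0.0857, adjusted p = 0.00161), and it had the same estimate after 3 administrations (-0.89, adjusted p = 0.00163).

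After 3 administrations the largest rises were those of Ncf1, a cytosolic subunit of NADPH oxidase (11.2, 12.5 and 9.96 CPM against 23.8, 25.2 and 34.6, log2 fold change 1.31, adjusted p = 0.00457), Gstcd (1.28, adjusted p = 0.0108) and Tfrc, the transferrin receptor (1.06, adjusted p = 0.014). The largest falls were those of Hpgds (-2.68, adjusted p = 0.0231), Oplah, the oxoprolinase of the glutathione cycle (-2.10, adjusted p = 0.0154), and Gstt1, a theta-class transferase. Gstt1 measured 35.7, 32.6 and 33.9 CPM in PBS-3 d6 and 13.5, 12.3 and 13.3 in 5-FU-3 d6 (-1.39, SE 0.0863, adjusted p = 0.00125), and it was also called lower after 1 administration (-0.68, adjusted p = 0.0381). Hpgds, Mpo, Msrb3 and Oplah were at most 6.12 CPM in the libraries compared, so their estimates rest on few counts.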

How the data were processed

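RNA of sorted mouse HSCs was sequenced (SMART-Seq v4, Nextera XT, NextSeq 500, single-end reads of 75 bases) in 21 libraries, 3 per group. The deposited table holds raw counts per gene symbol. According to the study's methods and the submitters' processing notes, the authors aligned reads with TopHat2 2.0.13 to mm10 and used Cuffdiff of Cufflinks 2.2.1; the step that gave whole-number counts is not given in the sources used here. The column names of 6 libraries, which are all those of PBS-1 d6 and 5-FU-1 d6 and no others, carry a suffix whose meaning is not stated. No values were transformed before testing.

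Groups were taken from the labels. Each comparison was fitted with the edgeR 4.0.16 quasi-likelihood test (R 4.3.3, filterByExpr, TMM) on its own libraries and all genes kept, with Benjamini-Hochberg adjustment and a threshold of 0.05; the interaction used 4 groups. SE was the absolute log2 fold change over the square root of F. CPM were TMM-normalized over all 21 libraries. Levels per kilobase used the RefSeq mRNA length. With 3 libraries against 3 an exact permutation test cannot go below p = 0.1, so none was used. Library totals were 22184885 to 38649033, and 3 counts corresponded to 0.0845 to 0.129 CPM. Pairs of libraries of 1 group differed by 16.8 to 37.2 times the sampling variance, so none was taken for a repeat of another.

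The genes, the lists and the rule for naming genes were chosen with earlier results of these data known. All 39 genes were accounted for; values per library were given for those called at day 6 and for Nfe2l2, Keap1, Hmox1, Nqo1 and Gclm, and in the longer list the 3 largest rises and falls per day 6 comparison were named. Gene positions are from GENCODE on GRCm38, the assembly of mm10. Promoters are from RefSeq (GRCm38.p6); those of Hmox1, Gclc, Gsr, Prdx6 and Gsta4 were not matched. Alternatives were other scalings (RLE, library totals), filters, thresholds and control groups, DESeq2 1.42.0, 1 fit of all libraries, a replicate block, and each library left out. The separate normalization of genes by number of RefSeq mRNAs was added after seeing the data. The scripts were tested on simulated data.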

Additional observations from a re-analysis of the deposited data

How the results depend on the processing

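Over 41 results on single genes and 592 alternatives, 500 kept their direction and side of the threshold, 65 lost the call, 19 gained one and 8 changed sign. The sign changes were of uncalled estimates after 1 administration when 1 library was left out, over which Hmox1 ran from -0.09 to 0.17, Nfe2l2 from -0.05 to 0.02 and Keap1 from -0.13 to 0.07.

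The number of the 39 genes called changed with the setting, and the cause was not tested. In 1 fit of all 21 libraries it was 10 after 1 administration at day 6 (6 in the main fit of 2 groups), 3 and 1 at day 21 against PBS after 1 and 3 administrations, and 10 from day 6 to day 21 after 3. DESeq2 called 4 and 1 at day 21, 11 from day 6 to day 21 after 3 administrations, 3 between the PBS groups and 2 in the interaction. With all 6 PBS libraries as control, 1 was called at day 21 after either schedule. An adjusted p under 0.01 left 2 after 3 administrations at day 6 and 2 from day 6 to day 21 after 1. In that last comparison leaving out 1 library gave 2 to 9, with 2 without any 1 library of 5-FU-1 d6 and 4 without 5-FU-1 d21 replicate 2 or 3. Normalizing genes with 1 and with 2 or more RefSeq mRNAs apart, an alternative chosen after seeing the data, gave 13 calls after 1 administration (Gsr, Txn1, Srxn1, Prdx6 and Sod1 added as higher, Nqo1 and Cat as lower) and 9 after 3 (Gsr added as higher, Nfe2l2 and Gstm5 as lower). Per kilobase of all exons together, Gpx1 stood at 838 CPM in PBS-1 d6, Gpx4 at 177 and Prdx6 at 78.1.

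Calls over all genes ranged from 1563 to 3548 after 1 administration (main 2827), from 1231 to 3291 after 3 (2310), from 1736 to 4097 (3272) and 1351 to 3348 (2450) from day 6 to day 21, from 1 to 726 (28) and 0 to 573 (6) at day 21 against PBS, from 20 to 557 in old mice (128), from 0 to 531 between PBS groups (2) and from 38 to 692 in the interaction (86). By library totals alone the share of higher calls went from 52.3% to 35.1% in the interaction, and at day 21 from 32.1% to 20.5% and from 83.3% to 40%.

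Replicate numbers did not pair the libraries (correlations of deviations of same-numbered libraries -0.0398 to 0.0639). With the replicate number as a block, 5 and 6 of the 39 genes were called at day 6, 0 and 0 at day 21 against PBS, 6 and 6 from day 6 to day 21, and 0 in the other 3 comparisons; over all genes the block gave 2041, 1509, 3, 0, 2652, 2071, 30, 0 and 55 calls in the same order.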
